A study of Homo sapiens with 8 samples.

Results

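PCNA peaks beside the centromeres of 13 autosomes were described in MCF10A cells, a human breast epithelial cell line that does not form tumors, and in *TUBG*-shRNA-MCF10A cells (*TUBG*-shRNA cells below), the same line with a stably expressed short hairpin RNA against γ-tubulin. Both populations were synchronized in early S phase with thymidine and collected after a release of 1 or 2 h. All 4 conditions had 2 libraries from immunoprecipitation with a polyclonal anti-PCNA antibody and a whole-cell lysate as control, and the authors called peaks on both libraries together. Only the cells with the hairpin were selected with Zeocin, so the hairpin and the selection cannot be told apart. A peak was taken as a member when its start, on hg19, lay in a fixed window around the centromere of chromosome 1, 3, 5, 6, 7, 8, 9, 11, 12, 17, 18, 19 or 20. The windows were 6 Mb long, except 7 Mb on chromosome 7, 26 Mb on chromosome 1 and 34 Mb on chromosome 9, and spanned 127 Mb in all. The member closest to a border lay 0.441 Mb inside (chromosome 3, start 94558779, fold enrichment 9.67), and the closest peak left out lay 0.00688 Mb outside (chromosome 8, start 48006885, fold enrichment 5.68). By this rule, 670 of the 4020 peaks in the 4 lists were members. The peaks outside the windows, used for comparison below, are all the others. They include any beside the centromeres of chromosomes without a window, besides those on chromosome arms. Of the MCF10A lists, 63 of 562 peaks (1 h) and 545 of 2768 peaks (2 h) were members, and of the *TUBG*-shRNA lists 20 of 290 (1 h) and 42 of 400 (2 h). Each window was split by a stretch of at least 3.0 Mb without any peak, but its position was not compared with the centromere gap of the assembly.

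PCNA is the ring-shaped clamp that replication factor C loads on DNA and that holds the replicative polymerases on their template, so it marks DNA that is being copied or repaired. Pericentromeric DNA consists largely of satellite sequence, short units repeated in tandem over long distances, and is packed as heterochromatin that is copied mostly in the later part of S phase. The hg19 assembly shows the centromeres themselves as gaps and holds few copies of many satellites. A short read from a missing copy can therefore be placed on a related copy that is in the assembly. No sequence or gene annotation of hg19 was used here, and the peaks are given by position only.

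Summit reads (the reads covering a summit) and local background (the reads expected there from the control) were solved from the deposited fold enrichment and p-value. The smallest background of the whole list was 1.88 reads in MCF10A cells at 1 h, 0.438 reads at 2 h, 1.36 reads in *TUBG*-shRNA cells at 1 h and 1.39 reads at 2 h. The shortest peak, by default the fragment length in MACS2, was 121, 47, 112 and 115 bp in the same order. The MCF10A list at 2 h stood apart in both, so fold enrichments are compared within a list. Because each list pools its libraries, the spread between replicates is unknown, no test between conditions was made, and intervals cover only the error of counting. They are too narrow, because peaks close to each other are dependent.

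The windows held more PCNA peaks at 2 h than at 1 h in both cell populations, and more in MCF10A than in *TUBG*-shRNA cells at both time points. Outside the chromosome 8 window, *TUBG*-shRNA cells had 15 peaks at 2 h and 14 at 1 h. The MCF10A list at 2 h had a shortest peak of 47 bp, against 112 to 121 bp in the other lists. The part of this difference in the ratios of peak numbers was not tested. In MCF10A cells, the ratio of 2 h to 1 h was 8.65 (545 and 63 peaks, 95% exact binomial interval 6.66 to 11.4). Among the peaks outside the windows of the same lists, it was 4.45 (2223 and 499 peaks, 4.04 to 4.92). For *TUBG*-shRNA cells, the ratio of 2 h to 1 h was 2.10 in the windows (42 and 20 peaks, 1.21 to 3.78) and 1.33 outside them (358 and 270 peaks, 1.13 to 1.56). The ratio of MCF10A to *TUBG*-shRNA cells in the windows was 3.15 (1 h, 1.88 to 5.50) and 13 (2 h, 9.47 to 18.2), against 1.85 (1.59 to 2.15) and 6.21 (5.55 to 6.96) outside them. Each ratio was therefore higher in the windows, and in MCF10A cells over time and between cell populations at 2 h the counting intervals of the windows and of the other peaks did not overlap. This separation was lost when close peaks were joined, as given in the next paragraph. The windows took 11.2% of the MCF10A list at 1 h (95% Wilson interval 8.86 to 14.1) and 19.7% at 2 h (18.3 to 21.2), and 6.90% (4.51 to 10.4) and 10.5% (7.86 to 13.9) of the *TUBG*-shRNA lists.

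These ratios were smaller when close peaks were counted as 1. With peaks within 1 kb of each other joined, the windows held 52 regions (1 h) and 211 regions (2 h) in MCF10A cells, a ratio of 4.06 (2.98 to 5.61), and outside the windows it was 3.21 (2.79 to 3.72). The 20 regions at 1 h and 28 at 2 h of *TUBG*-shRNA cells gave a ratio of 1.40 (0.761 to 2.62), which did not exclude 1, and outside the windows it was 1.05 (0.845 to 1.30). The joined ratio of MCF10A to *TUBG*-shRNA cells was 2.60 (1.53 to 4.60) for 1 h and 7.54 (5.07 to 11.6) for 2 h, against 1.46 (1.20 to 1.78) and 4.49 (3.82 to 5.31) outside the windows. In all 4 comparisons, the joined intervals of the windows and of the other peaks overlapped. The peaks of MCF10A cells covered 10550 bp (1 h) and 59615 bp (2 h), with mean widths of 167 and 109 bp. Those of *TUBG*-shRNA cells covered 2816 and 7012 bp, with mean widths of 141 and 167 bp.

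**Figure D1:**
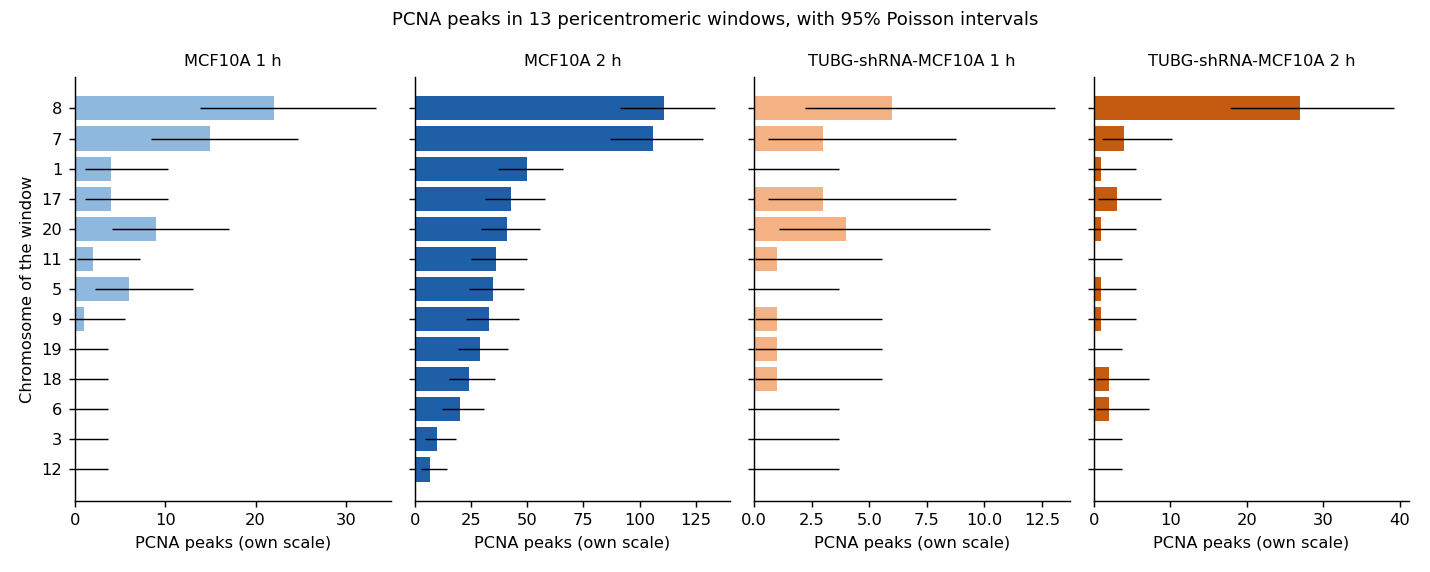
Number of PCNA peaks in each pericentromeric window, 1 panel per condition with its own linear scale from 0, and lines for the 95% Poisson interval. Chromosome 8 leads in each panel, with 22, 111, 6 and 27 peaks, and chromosome 7 comes next in MCF10A cells with 15 and 106.

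The windows differed widely from each other. At 2 h in MCF10A cells, all 13 windows held a peak, whereas 8 windows did in MCF10A cells at 1 h, 8 in *TUBG*-shRNA cells at 1 h and 9 at 2 h. The chromosome 8 window held 22 peaks in MCF10A cells at 1 h, 111 at 2 h, 6 in *TUBG*-shRNA cells at 1 h and 27 at 2 h. The chromosome 7 window held 15, 106, 3 and 4 peaks in the same order. Together, both windows held 166 and 128 of the 670 members (24.8% and 19.1%). In MCF10A cells at 2 h, the Poisson intervals of chromosomes 8 (91.3 to 134) and 7 (86.8 to 128) overlapped, and that of the next, chromosome 1 (50 peaks, 37.1 to 65.9), lay below both. No other neighbours in the order of that list were apart, which ran on through chromosome 17 (43 peaks), 20 (41), 11 (36), 5 (35), 9 (33), 19 (29), 18 (24), 6 (20), 3 (10) and 12 (7).

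The order was different per Mb. Per Mb of window, MCF10A cells at 2 h had 18.5 peaks on chromosome 8, 15.1 on chromosome 7, 7.17 on chromosome 17 and 6.83 on chromosome 20. The long windows of chromosomes 1 and 9 had 1.92 and 0.971 peaks per Mb, and the sparse windows of chromosomes 3 and 12 had 1.67 and 1.17. The window lengths include the widest interval without a peak of any list. It took 21.1 Mb on chromosome 1 and 21.4 Mb on chromosome 9, against 3.97 Mb on chromosome 3 and 3.14 Mb on chromosome 12. Peaks per Mb of window therefore do not compare the density of peaks where they occur. The windows also took unequal shares of the peaks on their chromosomes. At 2 h in MCF10A cells, the share was highest on chromosome 19 (29 of 33 peaks, 87.9%), chromosome 17 (43 of 50, 86%) and chromosome 20 (41 of 48, 85.4%), and lowest on chromosome 3 (10 of 43, 23.3%) and chromosome 12 (7 of 29, 24.1%).

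At 1 h, MCF10A cells had 9 peaks on chromosome 20, 6 on chromosome 5, 4 each on chromosomes 1 and 17, 2 on chromosome 11 and 1 on chromosome 9. The windows of chromosomes 3, 6, 12, 18 and 19 had none at 1 h and 10, 20, 7, 24 and 29 peaks at 2 h. Beyond chromosome 8, the count in *TUBG*-shRNA cells was low at both time points. It was 4 (1 h) and 1 (2 h) on chromosome 20, 3 and 3 on chromosome 17, 1 and 2 on chromosome 18, 0 and 2 on chromosome 6, and 1 and 1 on chromosome 9. Chromosomes 1 and 5 had 0 and 1 each, and chromosomes 11 and 19 had 1 and 0 each. Chromosomes 3 and 12 had no member in these cells, although a place without a called peak may still carry PCNA.

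**Figure D2:**
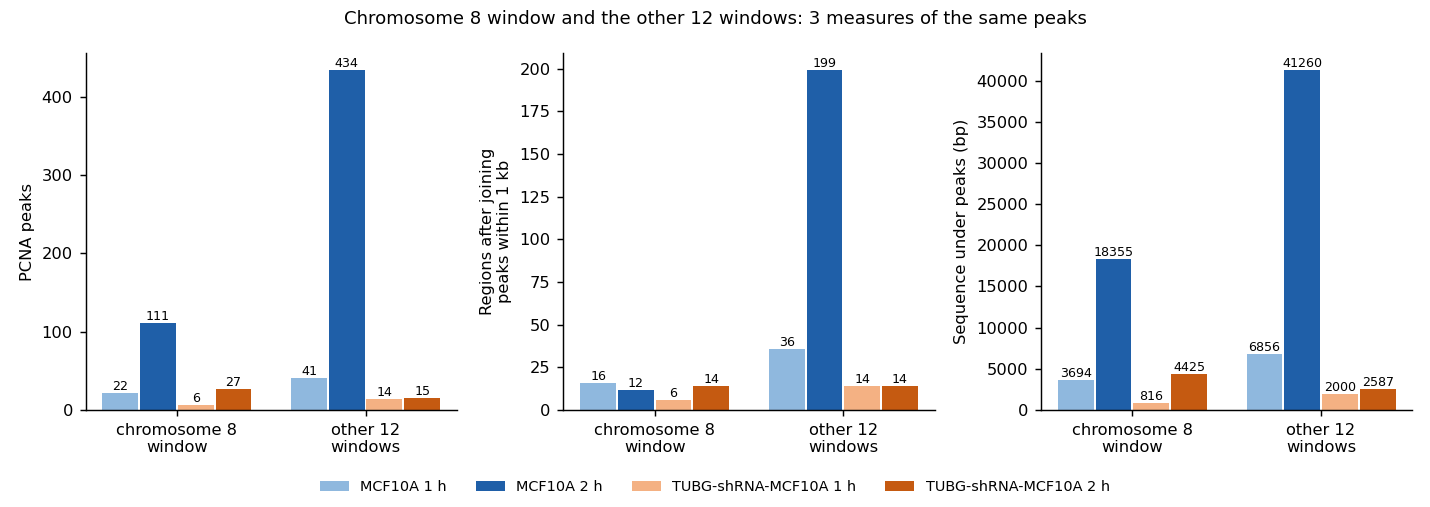
Peaks, regions left after joining peaks within 1 kb, and base pairs under peaks, for the chromosome 8 window and the sum of the other 12 windows in the 4 lists (linear axes from 0, values printed on the bars). In *TUBG*-shRNA cells the increase from 1 to 2 h is on chromosome 8 (6 to 27 peaks) and the other 12 windows hold 14 and 15.

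The chromosome 8 window was singled out because it held the most members, so its values are a description. The additional peaks of *TUBG*-shRNA cells at 2 h over 1 h lay mostly on chromosome 8, where the ratio of 2 h to 1 h was 4.50 (27 and 6 peaks, 1.82 to 13.3). In the other 12 windows, it was 1.07 (15 and 14 peaks, 0.482 to 2.40). Chromosome 8 thus held 30.0% (14.5 to 51.9) of the members of these cells at 1 h and 64.3% (49.2 to 77.0) at 2 h. In MCF10A cells, the ratio was 5.05 on chromosome 8 (3.17 to 8.38) and 10.6 in the other 12 windows (434 and 41 peaks, 7.67 to 15.0), and chromosome 8 held 34.9% of members at 1 h (24.3 to 47.2) and 20.4% at 2 h (17.2 to 24.0). At 2 h, MCF10A cells had 4.11 times as many peaks as *TUBG*-shRNA cells on chromosome 8 (2.68 to 6.51) and 28.9 times as many in the other 12 windows (17.3 to 52.1), whereas at 1 h these ratios were 3.67 (1.44 to 11.1) and 2.93 (1.56 to 5.82).

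In joined regions, the number on chromosome 8 differed little between MCF10A cells at 1 and 2 h. The window held 16 regions in MCF10A cells at 1 h, 12 at 2 h, 6 in *TUBG*-shRNA cells at 1 h and 14 at 2 h. The number of peaks per region in MCF10A cells went from 1.38 at 1 h to 9.25 at 2 h, and the sequence under the peaks from 3694 to 18355 bp. The joined ratio of 2 h to 1 h was 0.750 (0.324 to 1.69). In the other 12 windows, the joined regions went from 36 to 199 in MCF10A cells and were 14 at both time points in *TUBG*-shRNA cells. In base pairs, the ratio of MCF10A to *TUBG*-shRNA cells at 2 h was 4.15 on chromosome 8 and 15.9 in the other 12 windows.

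Within the windows, the peaks lay in short stretches. When members of any list up to 100 kb apart were chained, they formed 48 stretches, of which the 10 with the most peaks held 469 of the 670 members (70%). The chromosome 7 stretch from 61562918 to 62033326 held 10 peaks (1 h) and 71 peaks (2 h) in MCF10A cells and 2 and 3 peaks in *TUBG*-shRNA cells. Both large stretches of chromosome 8 were about as long and as rich as each other. From 43793184 to 43838726 there were 9, 48, 3 and 13 peaks, and from 46838994 to 46883069 there were 9, 48, 3 and 14. The compact stretch of chromosome 20 from 29804342 to 29832228 held 9, 35, 4 and 1 peaks, and that of chromosome 17 from 22244794 to 22262702 held 1, 34, 1 and 3. The stretch of chromosome 18 from 18511071 to 18520329, only 9.26 kb long, held 0, 23, 1 and 2 peaks.

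Many stretches bordered the widest interval without a peak of any list. On chromosome 8 this interval ran from 43838727 to 46838993 and was 3.0 Mb long, and both large stretches ended at its edges. It was between 3.0 and 3.97 Mb long in 11 windows, and 21.1 Mb on chromosome 1 and 21.4 Mb on chromosome 9. Within 100 kb of an edge lay 43 of the 63 members of MCF10A cells at 1 h (68.3%, 95% Wilson interval 56 to 78.4) and 381 of 545 at 2 h (69.9%, 65.9 to 73.6). Among *TUBG*-shRNA members, these were 16 of 20 at 1 h (80%, 58.4 to 91.9) and 38 of 42 at 2 h (90.5%, 77.9 to 96.2). The edges were set by the same peaks, so these shares describe the lists and test nothing. Every MCF10A peak at 2 h on chromosomes 12, 18, 19 and 20 (7, 24, 29 and 41 peaks) was in this range. The share was lower on chromosome 1 (32 of 50), chromosome 9 (14 of 33) and above all chromosome 7 (9 of 106). Both sides held peaks in 13 windows in MCF10A cells at 2 h, in 4 at 1 h, and in 3 and 1 windows in *TUBG*-shRNA cells at 1 and 2 h.

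**Figure D3:**
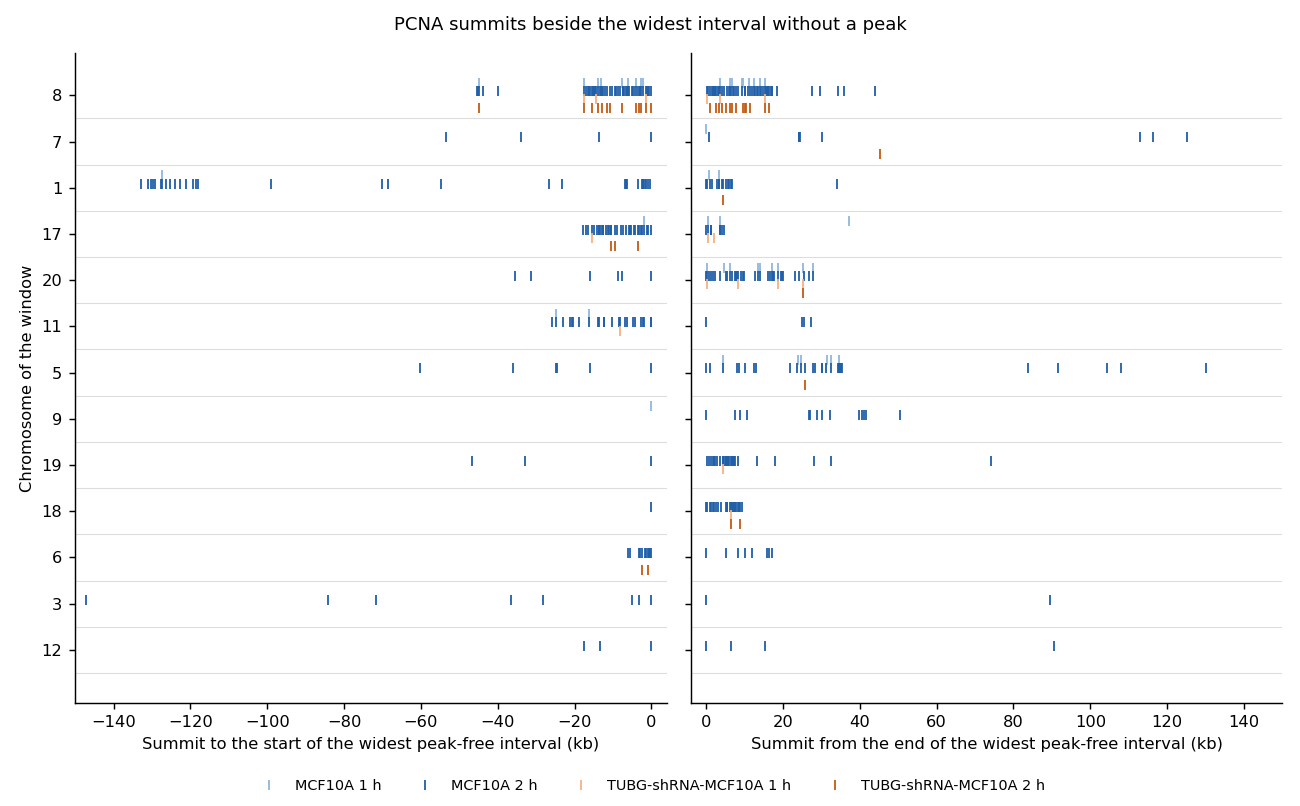
Distance in kb from each PCNA summit to the nearer edge of the widest interval without a peak, before it (left) and after it (right), for summits within 150 kb, by chromosome and list (1 tick per peak). On chromosome 8 both sides are lined with peaks of all 4 lists, while chromosomes 18, 19 and 20 have most of theirs on the right (23, 26 and 35 peaks in MCF10A cells at 2 h).

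The distance between neighbouring summits in the windows was near that of the other peaks in MCF10A cells at 2 h and longer in the other lists. In MCF10A cells at 2 h, 322 of 532 distances between neighbouring members (60.5%) were at most 1 kb, against 62.3% outside the windows, and the median was 650 bp against 609 bp. On chromosome 8, 99 of 110 (90%) were at most 1 kb, with a median of 388 bp. At 1 h, the share was 16.4% in MCF10A cells, against 45.1% outside the windows, with medians of 2576 and 1217 bp. None of the 12 distances of *TUBG*-shRNA cells at 1 h was that short, against 34.5% outside, and at 2 h it was 30.3% against 47.2%. The α-satellite of human centromeres has a repeat unit of constant length. Of the 386 distances under 2 kb in MCF10A cells at 2 h, 73 (18.9%) were within 15 bp of a multiple of its length, while 18.1% of all possible distances are, and outside the windows it was 20.4%.

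The members were enriched less strongly than the other peaks of their lists, over a background with a higher median. The fold enrichment of the MCF10A members at 2 h ranged from 1.69 to 27.1 with a median of 4.61, against a median of 6.31 outside the windows, and the median background was 4.49 reads against 2.34. At 1 h, their median fold enrichment was 2.78 against 3.11, over 18.7 and 17.7 background reads. The *TUBG*-shRNA members had 2.16 against 2.40 at 1 h, over 40.1 and 30.6 reads, and 2.06 against 2.44 at 2 h, over 64.4 and 29.4 reads. The share of members with a q-value of at most 1e-10 was 25.4% (1 h) and 32.7% (2 h) in MCF10A cells, against 36.3% and 46.1% outside the windows. It was 15.0% and 26.2% in *TUBG*-shRNA cells, against 21.9% and 27.7%.

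The local background differed between chromosomes. It is the divisor of the fold enrichment, and no summit of the MCF10A list at 2 h had over 94 reads, so a high background goes with a low fold enrichment by construction. In MCF10A cells at 2 h, the median background was highest on chromosome 19 (17.6 reads), 18 (14.6), 6 (12.5) and 8 (9.37), where the median fold enrichment was 3.07, 3.44, 3.47 and 3.85. It was lowest on chromosomes 12 (0.586 reads), 3 (0.637), 20 (1.17) and 7 (1.21), with a median fold enrichment of 6.03, 6.55, 8.09 and 5.80. The peaks of chromosome 8 stood on a high background in each list. The median was 74.3 reads in MCF10A cells at 1 h against 9.84 reads in the other 12 windows, 9.37 against 2.93 at 2 h, 85.7 against 28.6 in *TUBG*-shRNA cells at 1 h, and 68.2 against 33.4 at 2 h. As a multiple of the smallest background of the list, these medians on chromosome 8 were 39.6, 21.4, 63.1 and 48.9.

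**Figure D4:**
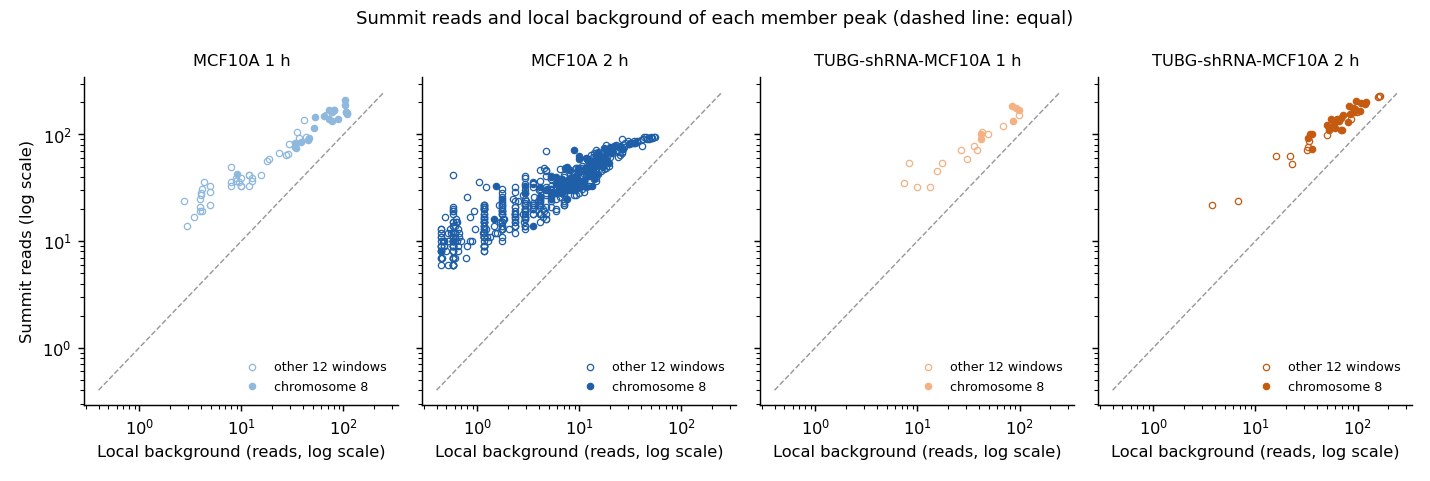
Summit reads against local background for each member peak, both on log axes, by list (filled: chromosome 8, open: the other 12 windows, dashed line: equal numbers). In *TUBG*-shRNA cells the peaks start at a background of 7.42 (1 h) and 3.79 (2 h) reads, while those of MCF10A cells at 2 h reach down to 0.438 reads and level off at 94 summit reads.

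The lists differed in the lowest background at which a peak was listed. The smallest background under a member was 2.74 and 0.438 reads in the MCF10A lists (1 and 2 h), and 7.42 and 3.79 reads in those of *TUBG*-shRNA cells. The fewest summit reads of a member were 14, 6, 32 and 22. The part of this difference in the peak numbers was not tested.

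The strongest member of all lists was on chromosome 20 from 29814109 to 29814192. Only the MCF10A list at 2 h held it, with 42 summit reads over 0.586 background reads, 27.1-fold enrichment at a −log10 q-value of 55. The next, on chromosome 1 from 142540110 to 142540178, had 70 reads over 4.69, 12.5-fold enrichment at a −log10 q-value of 48.9 in MCF10A cells at 2 h. It had a counterpart in *TUBG*-shRNA cells at 2 h, with 72 reads over 31.8, 2.22-fold enrichment at a −log10 q-value of 4.78, and none at 1 h in either population. The summits of both peaks were 4 bp apart. The peak on chromosome 17 from 25267270 to 25267405, with 18.1-fold enrichment at a −log10 q-value of 36.6, was again listed in MCF10A cells at 2 h only, 430 bp from the nearest summit of the 1 h list.

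For 12 of the 13 windows, the peak with the highest −log10 q-value came from MCF10A cells at 2 h, and for 11 of them it had no counterpart in another list. That list held 545 of the 670 members, and 466 of these 545 had no match in another list. The lists also differ in fragment length, so this order across lists is a description only. The 11 peaks without a counterpart included those on chromosome 8 from 43095732 to 43095985 (fold enrichment 7.36, −log10 q-value 33.5), chromosome 7 from 58005260 to 58005342 (14.9 and 28.9), chromosome 18 from 18512844 to 18512969 (8.93 and 27) and chromosome 6 from 61902219 to 61902283 (13.9 and 21), besides those of chromosomes 20 and 17. The strongest peaks of chromosomes 11, 19, 9, 3 and 12 had −log10 q-values of 20.8, 18.1, 18, 16.6 and 12.7. The exception was chromosome 5, where the peak from 49438307 to 49438450 led in MCF10A cells at 1 h, with 137 reads over 41.3, 3.26-fold enrichment at a −log10 q-value of 24.6. At 2 h its counterpart had 42 reads over 10.5, 3.72-fold enrichment at a −log10 q-value of 8.68, and *TUBG*-shRNA cells had none.

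The 3 strongest members of MCF10A cells at 1 h were that peak on chromosome 5, a peak on chromosome 8 from 43836408 to 43836529 (−log10 q-value 20.4) and one on chromosome 20 from 29822904 to 29823055 (17.8). At 1 h, the strongest *TUBG*-shRNA member was on chromosome 20 from 29822927 to 29823056, and had 54 reads over 8.28, 5.92-fold enrichment at a −log10 q-value of 19.4. Its counterpart in MCF10A cells had 5.75-fold enrichment at a −log10 q-value of 17.8 at 1 h, with a summit 1 bp away, and 11.6 and 22.8 at 2 h. It was not listed in *TUBG*-shRNA cells at 2 h, and the nearest summit was 6512 bp away. The 3 strongest members of *TUBG*-shRNA cells at 2 h were all on chromosome 8. The first of these, from 43821025 to 43821183, had 2.26-fold enrichment at a −log10 q-value of 16.5, and the others, from 46845183 and from 43827988, had −log10 q-values of 15.3 and 15.3.

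At 4 places, a peak of MCF10A cells at 2 h had a counterpart in each of the other lists, 3 on chromosome 8 and 1 on chromosome 20. The place on chromosome 8 from 43820959 to 43821213 had 212 summit reads in MCF10A cells at 1 h, 72 at 2 h, 186 in *TUBG*-shRNA cells at 1 h and 186 at 2 h. The fold enrichments were 2.04, 3.7, 2.2 and 2.26, and the −log10 q-values 14.9, 15.7, 14.8 and 16.5. Its summits in the other lists lay at most 2 bp from that of MCF10A cells at 2 h. At the place from 46842382 to 46842570, the fold enrichments were 1.79, 5.84, 1.90 and 2.06 and the −log10 q-values 8.03, 23.9, 9.18 and 10.0. At the third of them, from 46854034 to 46854365, the −log10 q-values were 1.65, 13.6, 2.03 and 8.35 in the same order. In MCF10A cells, this summit had 159 reads over 108 at 1 h and 62 reads over 15.8 at 2 h. Values of different lists are given side by side here, and their differences are not read as a change in PCNA. On chromosome 20 from 29829342 to 29829776, the fold enrichments were 2.91, 9.21, 2.43 and 2.56, with −log10 q-values of 15.3, 26.6, 10.2 and 9.21.

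Peaks of different lists were matched when at least 25% of both overlapped, and the share of members with a match was read beside that of the whole list. By this rule, a short peak inside a much longer one has no match, so the shares also depend on peak width. The median width of MCF10A members at 2 h was 132 bp on chromosome 8 and 67 bp in the other 12 windows. For *TUBG*-shRNA members at 2 h, the median width was 153 bp. Of the MCF10A members at 1 h, 45 of 63 (71.4%, 95% Wilson interval 59.3 to 81.1) had a match at 2 h, against 79.7% of all peaks. With a minimum overlap of 50%, this share of members was 38.1%, with 1 bp it was 77.8%, and with summits within 200 bp 79.4%. These alternatives were not computed for the whole list, so they are not read as a trait of the windows. At the 25% minimum, all 22 of 22 on chromosome 8 had a match (85.1% to 100%), and in the other 12 windows 23 of 41 (56.1%, 41.0 to 70.1). Of the 18 without a match, 10 were on chromosome 7, for example the peak from 61786095 to 61786309, with 6.22-fold enrichment at a −log10 q-value of 12.0. That peak did overlap a peak of the 2 h list, from 61786289 to 61786366, but by less than 25% of its own 215 bp. Over time in *TUBG*-shRNA cells, 7 of 20 members at 1 h had a match at 2 h (35%, 18.1 to 56.7), against 58.6% of the list, made up of 4 of 6 on chromosome 8 and 3 of 14 elsewhere. Outside the windows, 80.8% of MCF10A peaks (77.1 to 84.0) and 60.4% of *TUBG*-shRNA peaks (54.4 to 66.0) had a match, and these intervals overlap those of the members.

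**Figure D5:**
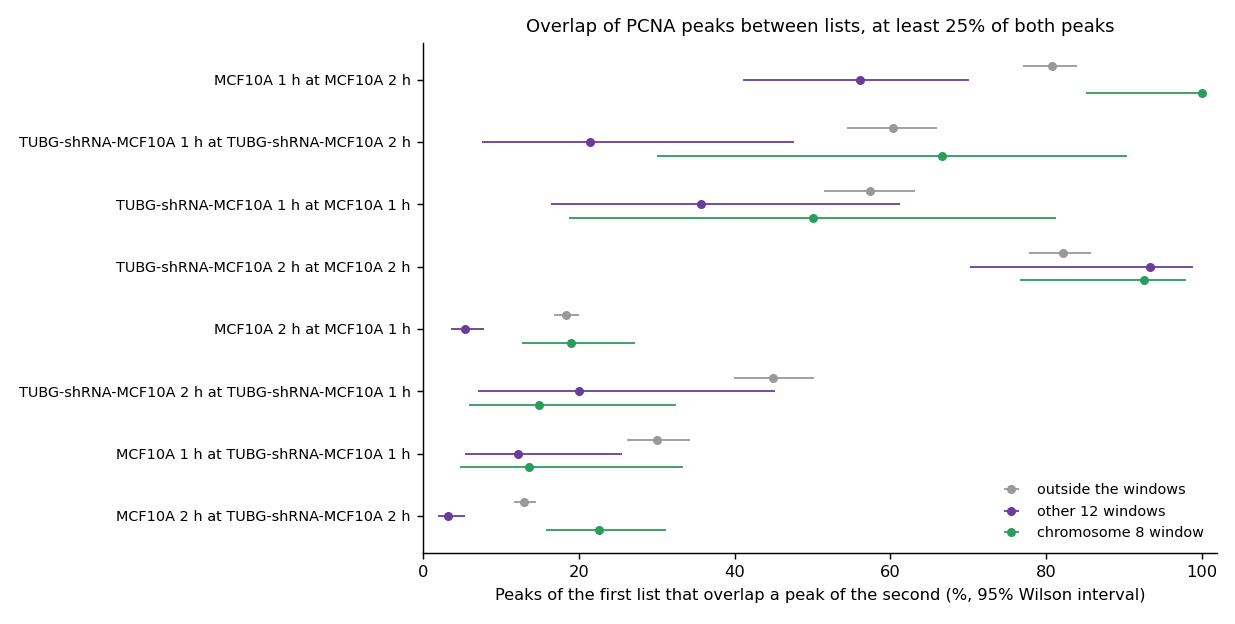
Share of peaks of the first-named list that overlap a peak of the second by at least 25% of both, for the chromosome 8 window, the other 12 windows and all peaks outside the windows, with 95% Wilson intervals. Of the MCF10A peaks at 2 h, 22.5% on chromosome 8, 3.23% in the other 12 windows and 13% outside the windows lie at a peak of *TUBG*-shRNA cells at 2 h.

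Between cell populations, 39 of 42 members of *TUBG*-shRNA cells at 2 h (92.9%, 81.0 to 97.5) had an MCF10A match, against 83.2% of the list. Outside the windows it was 82.1% (77.8 to 85.7), an interval that overlaps that of the members. With a minimum of 50%, 57.1% of these members had a match, and with 1 bp 97.6%, again without a value for the whole list. At the 25% minimum, the 3 without a match were on chromosome 7 from 61100133 to 61100368 (−log10 q-value 2.73) and on chromosome 8 from 43826983 to 43827102 (5.78) and from 46849083 to 46849208 (8.08). Both peaks on chromosome 8 overlapped a longer MCF10A peak, but by less than 25% of that longer peak. The one from 43826983 lay wholly inside the MCF10A peak from 43826830 to 43827379. The one from 46849083 lay partly inside that from 46849141 to 46849628. At 1 h, 8 of 20 members (40.0%, 21.9 to 61.3) had an MCF10A match, against 56.2% of the list. Of the 12 without one, 3 lay on chromosome 8 and the strongest of them was on that chromosome from 46839057 to 46839174 (−log10 q-value 8.57). No MCF10A peak at 1 h overlapped any of these 12 by even 1 bp.

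In the other direction, the shares are bounded by the shorter lists. Of the 545 MCF10A members at 2 h, 44 (8.07%, 6.07 to 10.7) had a match at 1 h, against 16.3% of the list, and 39 (7.16%, 5.28 to 9.63) in *TUBG*-shRNA cells at 2 h, against 11.8%. Of the 63 MCF10A members at 1 h, 8 (12.7%, 6.58 to 23.1) had a match in *TUBG*-shRNA cells at 1 h, against 28.1%. Of the 42 *TUBG*-shRNA members at 2 h, 7 (16.7%, 8.32 to 30.6) had a match at 1 h, against 42%. For each of these, the share in the windows was below that of the list. Chromosome 8 differed from the other 12 windows here, since 25 of its 111 MCF10A peaks at 2 h (22.5%, 15.7 to 31.1) had a match in *TUBG*-shRNA cells at 2 h, against 14 of 434 (3.23%, 1.93 to 5.34).

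In all, 466 of the 545 MCF10A members at 2 h matched no peak of another list, 28 matched MCF10A cells at 1 h alone, and 23 matched *TUBG*-shRNA cells at 2 h alone. A missing match was common in the whole list too. Of its 2768 peaks, 16.3% matched MCF10A cells at 1 h and 11.8% matched *TUBG*-shRNA cells at 2 h. Neither the count of 466 nor the shares by strength and background below were computed for the whole list. Stronger peaks had a match more often, as a description of these lists. The part of peak width in the shares by strength, background and chromosome was not tested. In *TUBG*-shRNA cells at 2 h, it was 4.17% of the 144 peaks with a −log10 q-value under 5, 5.38% of the 223 from 5 to 10, 10.8% of the 158 from 10 to 20 and 20.0% (8.07 to 41.6) of the 20 above. In MCF10A cells at 1 h, the shares were 2.78%, 7.17%, 11.4% and 30.0% (14.5 to 51.9). The share with a match was also set against the background. Of the 272 members with a background under the median of 4.49 reads, 2 (0.735%) had a match in *TUBG*-shRNA cells at 2 h, and of the 273 at or over it, 37 (13.6%, 10.0 to 18.1). For a match in MCF10A cells at 1 h, these shares were 5.51% (3.37 to 8.90) and 10.6% (7.50 to 14.8), and for *TUBG*-shRNA cells at 1 h 2.57% (1.25 to 5.22) and 4.4% (2.53 to 7.52), with intervals that overlap in both. Among members at or over the median, the share with a match in *TUBG*-shRNA cells at 2 h was 25% (17.5 to 34.3) of 100 peaks on chromosome 8 and 6.94% (4.01 to 11.7) of 173 in the other 12 windows. For MCF10A cells at 1 h it was 20.0% (13.3 to 28.9) and 5.20% (2.76 to 9.59), and for *TUBG*-shRNA cells at 1 h 6% (2.78 to 12.5) and 3.47% (1.60 to 7.36). The intervals of chromosome 8 and the other 12 windows overlap for the last of these lists only.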

How the data were processed

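The data are PCNA ChIP-seq peak lists on hg19, 1 for each of 4 conditions with 2 libraries each. Per the labels, Bowtie 1.0.0, MACS2 2.1.1 and bedtools 2.17.0 were used, and the authors called peaks on both libraries of a condition together against whole-cell lysate. The deposited values are the fold enrichment at the summit (a ratio), the −log10 p-value and the −log10 q-value. A deposited score, the −log10 q-value on another scale, was not used. The q-value threshold and the treatment of reads that align to several places, which decides what is counted in repeats, are not given in the sources used here. The weakest member of each list had a q-value between 0.0417 and 0.0498.

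Members were taken by the start column and the fixed windows. The windows, lists and measures were chosen with earlier results of these data known. The peaks named are the strongest of each window, the 3 strongest of each list and those matched in all 4 lists. Others given as examples were chosen after their values were seen. Positions count from 1. Summit reads and background were solved from the fold enrichment, with a pseudocount of 1, and the Poisson p-value, within 0.0003 in the −log10 p-value for 100% of peaks. Python 3.11.15, numpy 2.4.6, pandas 2.3.3, scipy 1.17.1 and matplotlib 3.10.9 were used. Overlap, joining and the solution of reads were tested on simulated data. Intervals are 95% exact binomial (ratios), Wilson (shares) and Poisson (numbers).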

Additional observations from a re-analysis of the deposited data

Results flagged for a closer look

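In 3 windows, the number of PCNA peaks went up from 1 to 2 h in MCF10A cells and down in *TUBG*-shRNA cells, a difference that was not tested for lack of separate replicate lists. On chromosome 20, there were 9 and 41 peaks in MCF10A cells, while the number fell by 3 in *TUBG*-shRNA cells, from 4 to 1. On chromosome 11, there were 2 and 36 peaks in MCF10A cells, while the number fell by 1, from 1 to 0. On chromosome 19, there were 0 and 29 peaks, while it also fell by 1, from 1 to 0. With counts of 0 to 4, these decreases lie within counting error.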

How the results depend on the processing

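No paired analysis was possible because the authors merged the libraries of a condition before calling peaks, and leaving out a library was not possible for the same reason. Of the alternatives that gave a value, 50 stayed within the counting interval of the reported value, 20 moved out of it and 1 was reversed. Among peaks enriched at least 5 times, the ratio of 2 h to 1 h was 27.3 in MCF10A cells and reversed to 0 in *TUBG*-shRNA cells (0 and 1 peak), the ratio of MCF10A to *TUBG*-shRNA cells at 1 h was 9, no ratio could be given at 2 h (246 and 0 peaks), and the windows took 14% of MCF10A peaks at 2 h and 3.57% (1 h) and 0% (2 h) of those of *TUBG*-shRNA cells. This cut-off is not alike across lists, as fold enrichments are compared only within a list. Outside the windows, 68.2% of MCF10A peaks at 2 h passed it, against 12.0% at 1 h. In *TUBG*-shRNA cells, 10.0% (1 h) and 3.91% (2 h) of these peaks did. With a q-value of at most 1e-10, the windows took 8.12% (1 h) and 14.8% (2 h) of the MCF10A lists. Joined peaks gave ratios of 4.06 over time in MCF10A cells and 7.54 between populations at 2 h, and a share of 17% in MCF10A cells at 1 h. At 2 h, the joined share of MCF10A cells was 20.6%, with an interval that overlaps that of 1 h. Base pairs gave 5.65 and 8.50 for these ratios. Without chromosome 8, the ratio over time in *TUBG*-shRNA cells was 1.07 and that between populations at 2 h 28.9. When 50% of both peaks had to overlap, 38.1% of MCF10A members at 1 h had a match at 2 h and 57.1% of *TUBG*-shRNA members at 2 h had one in MCF10A cells. The latter was 97.6% with 1 bp, and 100% for members with a q-value of at most 1e-10, for which the *TUBG*-shRNA members at 1 h matched 66.7% over time and 100% in MCF10A cells (3 peaks). The cause was not tested. Windows widened by 1 Mb on each side moved no ratio or share out of its interval. A minimum of 14 summit reads, tried for the ratios, moved none of them either.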

Other observations

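The summit reads of each list had an upper limit. The length of the shortest peak of a list times 2 was 242 in MCF10A cells at 1 h, 94 at 2 h, 224 in *TUBG*-shRNA cells at 1 h and 230 at 2 h. The largest summit of the whole list was 241, 94, 221 and 230 reads, and no peak of any list went beyond 2 times the shortest peak. The largest summit of a member was 212, 94, 186 and 230 reads, so members came to this number in the lists at 2 h and not in those at 1 h. Members at 80% or more of 2 times the shortest peak were 1 of 63, 35 of 545, 1 of 20 and 8 of 42. On chromosome 8, these were 1, 6, 1 and 5 peaks. The widest member, on chromosome 7 from 61968694 to 61969702 in MCF10A cells at 2 h, had 94 summit reads over 55.1 background reads and a fold enrichment of 1.69. On chromosome 6, the pair of members of *TUBG*-shRNA cells at 2 h had 224 and 228 reads over 160 and 164. Whether duplicate reads were removed is not given in the sources used here, and the part of this limit in the differences between lists was not tested.

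On chromosome 8, a stretch from 43092744 to 43097517 outside the large stretches held 4 peaks (1 h) and 15 peaks (2 h) in MCF10A cells and none in *TUBG*-shRNA cells. On chromosome 9, the stretch from 66793357 to 66843873 held 14 peaks, all in MCF10A cells at 2 h. That list held 545 of the 670 members, against 20 (1 h) and 42 (2 h) in *TUBG*-shRNA cells. Many of the 48 stretches held peaks of the MCF10A list at 2 h only, so neither stretch is particular in this.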
